A study of Mus musculus with 8 samples.

Results

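Acetylcholine acts in the hippocampus through muscarinic and nicotinic receptors, and 9 genes of this system were compared between the BTBR and B6 mouse strains in that tissue. They were the muscarinic receptor genes Chrm1, Chrm2, Chrm3 and Chrm4, the nicotinic subunit genes Chrna4, Chrna5, Chrna7 and Chrnb2, and Ache, which encodes acetylcholinesterase. The members were all probes, controls left out, whose gene name on the array was one of these 9 names, and this gave 14 of 41174 probes. Chrm1, Chrm3, Chrm4, Chrna4 and Chrna7 had 2 probes each and the other genes 1. BTBR mice were BTBR T+ Itpr3tf/J, an inbred strain used as a model of autism, and B6 mice were wild-type C57BL/6J, which served as controls. All mice were labeled male and 5 months old, none received a drug, and each array held RNA from the whole hippocampus of 1 mouse, with 4 arrays a strain. The BTBR strain differs from B6 across the whole genome, so that a strain difference cannot be assigned to a single allele in this design. Values are normalized log2 intensities of single-color arrays, and differences are BTBR minus B6 on that scale.

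Muscarinic receptors are G protein-coupled receptors. The products of Chrm1 and Chrm3 couple to Gq and phospholipase C, whereas those of Chrm2 and Chrm4 couple to Gi and lower cyclic AMP. Nicotinic receptors are cation channels assembled from subunits around a central pore: Chrna4 and Chrnb2 encode the subunits of the main heteromeric receptor of the brain, Chrna5 encodes an accessory subunit that joins such receptors, and Chrna7 encodes the subunit of a calcium-permeable homomeric receptor. Most hippocampal acetylcholine comes from axons of the medial septum and diagonal band, and acetylcholinesterase ends its action by hydrolysis.

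The share of probes well above background lay between 56.8% and 71.9% on the B6 arrays and between 61.9% and 71.5% on the BTBR arrays, and no probe was saturated. There were 2 slides, each with its own scan, and both strains were placed on each: replicates 1 and 2 on slide 1, replicates 3 and 4 on slide 2. Of 12 genes of hippocampal principal neurons all passed the filter on dim probes, with mean log2 levels of 12.59 to 13.29 on the B6 arrays. All 14 thalamus genes and all 9 striatum genes on the array passed it too, so that passing does not identify the tissue. Markers of the thalamus, habenula and striatum set 3 arrays apart. BTBR replicate 1 lay above every B6 array in 13 of 14 thalamus genes and in the 3 habenula genes tested, of 7 listed. For Pou4f1 of the habenula list the margin was small, with 8.71 against 8.20 to 8.70 in B6. The summed intensity of the thalamus genes was 169137 on BTBR replicate 1. It was 21735 to 24724 on the B6 arrays and 21211 to 35561 on the other BTBR arrays. BTBR replicate 2 lay above every B6 array in 9 of 9 striatum genes, and B6 replicate 2 lay above the other B6 arrays in 8 of 9. The hippocampal principal neuron genes lay below every B6 array in 10 of 12 genes on BTBR replicate 1 and in 10 of 12 on BTBR replicate 2, and B6 replicate 2 lay below the other B6 arrays in 9 of 12. Their mean log2 level was 11.71 and 11.56 on those BTBR arrays, 12.59 on B6 replicate 2, and 13.04 and 12.93 on BTBR replicates 3 and 4. These 3 arrays were on slide 1. In bulk tissue, fewer cells of a type and less RNA per cell cannot be told apart.

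The strains differed at 2 of the 14 member probes: Chrm3 was higher and Chrna5 lower in BTBR. All 14 probes passed the filter on dim probes, and 9 were well above background on all 8 arrays. With limma and Benjamini-Hochberg adjustment over 27982 probes, 2 of 14 member probes (14.3%) were called at an adjusted p under 0.05, and over all probes tested the share was 7.67%. The 1 higher and the 1 lower probe stood against 3.33% of all probes called higher and 4.33% called lower. A single probe more or less moves the share of the members by 7.14 percentage points. The rank product, which ranks the differences of all pairs of arrays, called 1 of 14, that of Chrm3, and 3.91% of all probes. The 2 limma calls were those whose 4 BTBR values and 4 B6 values did not overlap, 14.3% of the members and 14.2% of all probes tested. The median difference was 0.18 over the 14 member probes and 0.01 over all probes tested, and 9 member probes had the higher mean in BTBR and 5 the lower one. The 12 probes that were not called had differences of -0.34 to 0.65 and limma adjusted p-values of 0.29 to 0.93. Without BTBR replicates 1 and 2, 1 of 14 member probes was called by limma, that of Chrm3, and 1553 of all 27982 probes.

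**Figure D1:**
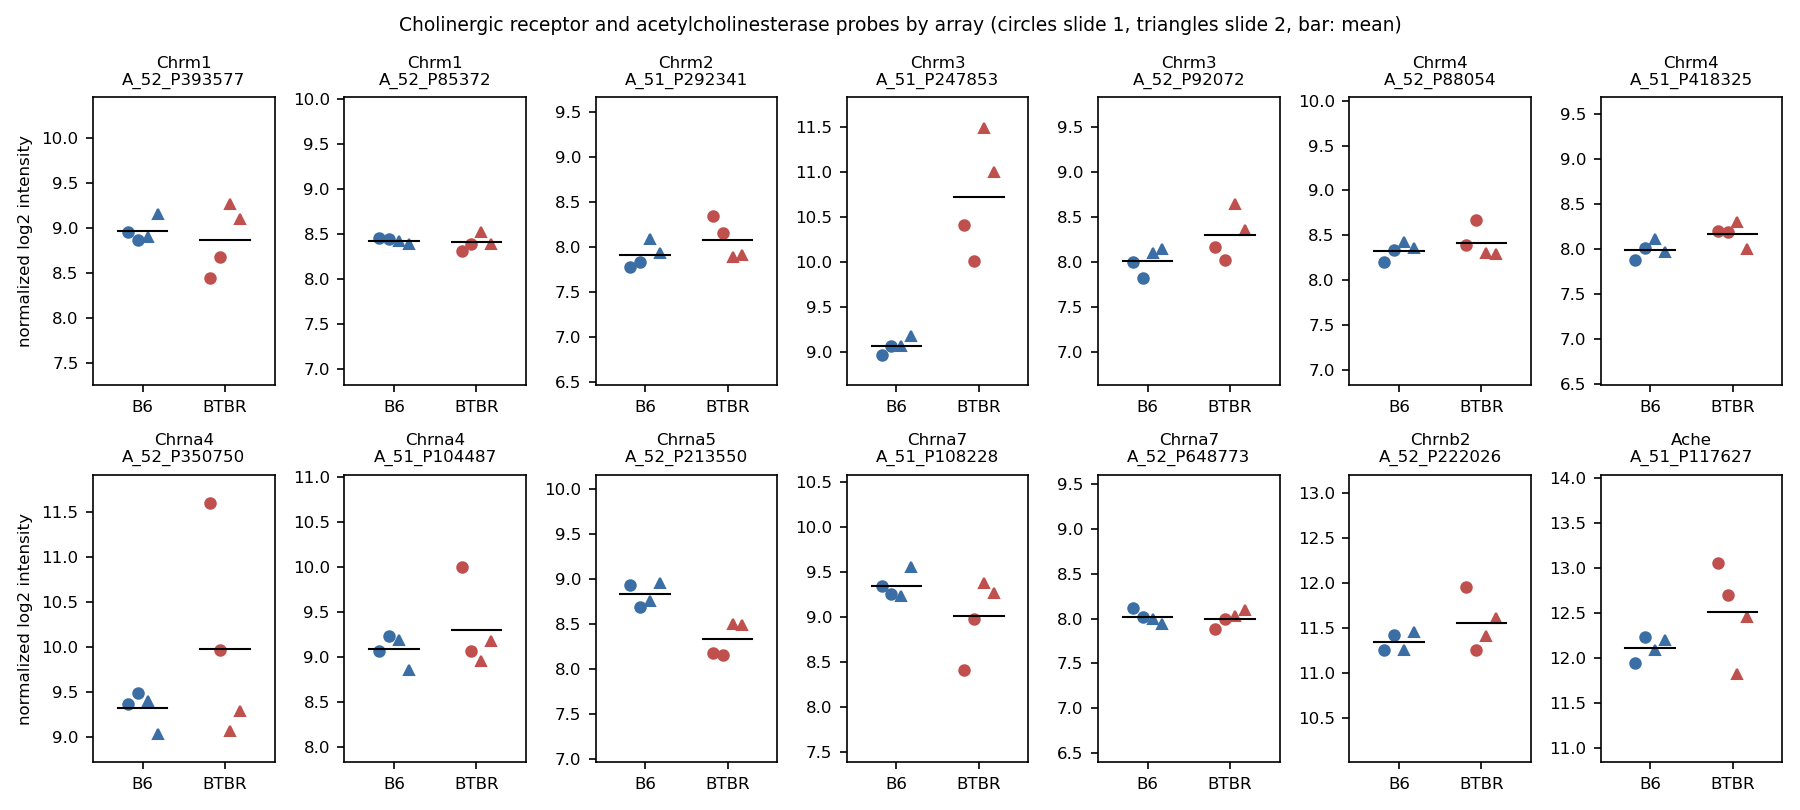
Normalized log2 intensity of the 14 member probes on each array, with B6 in blue and BTBR in red, circles for slide 1, triangles for slide 2 and a bar at the mean of each strain; every panel spans the same range of log2 units. The 4 BTBR values of Chrm3 probe A_51_P247853 run from 10.01 to 11.49, all above the B6 values, and a single BTBR array reaches 11.60 at Chrna4 probe A_52_P350750.

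**Figure D2:**
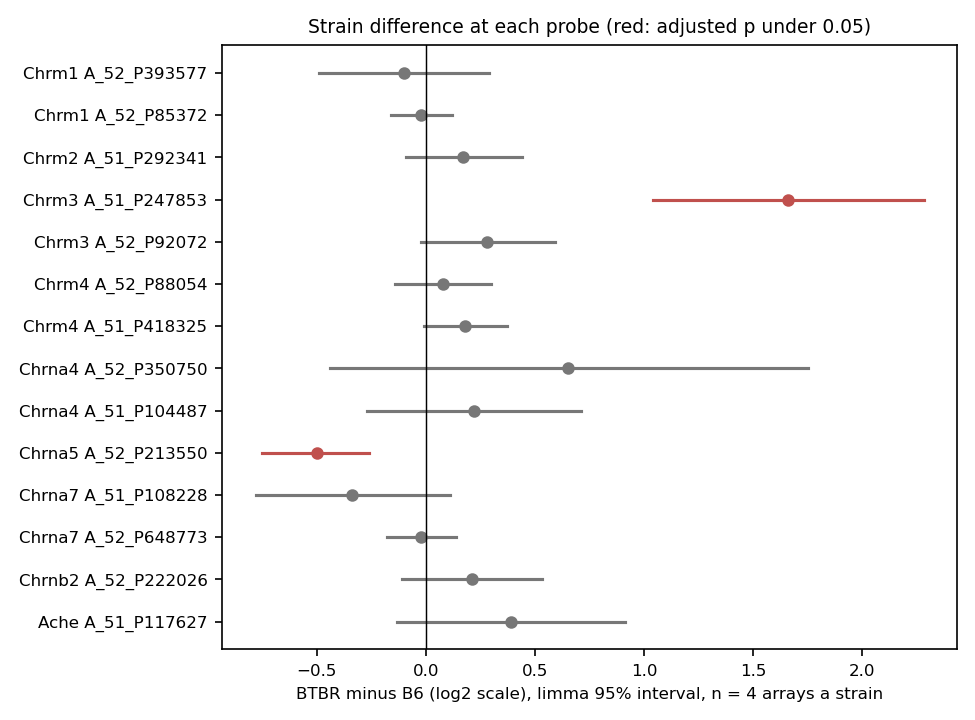
Difference of BTBR minus B6 at each member probe on the log2 scale, with the 95% interval of limma as a line (4 arrays a strain) and probes with an adjusted p under 0.05 in red. The interval of Chrm3 probe A_51_P247853 runs from 1.04 to 2.28 and that of Chrna5 from -0.75 to -0.26, and the intervals of the other 12 probes include 0.

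Chrm3 was read by 2 probes, whose sequences are shown because the strain difference was called at the first and not at the second. The first, A_51_P247853, was designed on the RefSeq transcript NM_033269 and lies at chr13:9876539-9876598 on the minus strand (mm9). The second, A_52_P92072, was designed on the cDNA AK051841 and lies at chr13:10119735-10119794 on the minus strand, 243196 bases away between the starts. Capitals mark the longest run of bases shared with a probe of another member gene, 8 bases with the Chrm4 probe A_52_P88054 for the first and 8 bases with a Chrna4 probe for the second.
Chrm3 A_51_P247853: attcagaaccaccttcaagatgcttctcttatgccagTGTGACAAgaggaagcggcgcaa
Chrm3 A_52_P92072: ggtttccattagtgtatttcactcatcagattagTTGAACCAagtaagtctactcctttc
Chrm4 A_52_P88054: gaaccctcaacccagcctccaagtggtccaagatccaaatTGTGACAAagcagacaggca
Among the probes of all other gene names on the array, the longest run shared with the first Chrm3 probe was 13 bases, in 2 probes.

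At A_51_P247853, the B6 arrays 1 to 4 measured 8.97, 9.06, 9.06 and 9.18. The BTBR arrays 1 to 4 measured 10.41, 10.01, 11.49 and 11.00. Every BTBR array lay above every B6 array, and the BTBR values were further apart from each other than the B6 values, with the pair on slide 2 above the pair on slide 1. The means were 9.07 ± 0.09 in B6 and 10.73 ± 0.65 in BTBR (SD, n = 4), a difference of 1.66 with a standard error of 0.27. This is 3.16-fold higher, with a 95% interval of 2.05 to 4.87, and limma gave an adjusted p of 0.0056. The exact permutation test of the 8 arrays gave p = 0.0286, the smallest value that 4 against 4 allows. Before scaling, the intensity over local background was 454 to 527 in B6 and 1050 to 2330 in BTBR, so that the difference was measured well clear of the background. The rank product gave it an estimated percentage of false predictions (pfp) of 0.0. Within slide 1 the difference was 1.20 and within slide 2 it was 2.13, and the change between slides had a limma adjusted p of 0.44. Without BTBR replicates 1 and 2 the difference was 2.18 (limma adjusted p of 0.00015), and it was 2.18 as well without those and B6 replicate 2 (limma adjusted p of 0.00077).

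The second Chrm3 probe was dim. A_52_P92072 measured 8.0, 7.82, 8.10 and 8.14 on the B6 arrays and 8.17, 8.02, 8.64 and 8.35 on the BTBR arrays, and it was well above background on 2 of 4 B6 and 4 of 4 BTBR arrays. The groups overlapped, and the difference of 0.28 with a standard error of 0.13 did not pass (limma adjusted p of 0.31). With the processed signal the difference was 1.0 (limma adjusted p of 0.42). The first probe less the second differed by 1.38 between the strains, with an exact permutation p of 0.0286. Benjamini-Hochberg adjustment of this permutation p over 5 genes gave 0.143. With a probe this dim, these values do not settle whether the change was unequal between both probes. The median of both probes, fitted as 1 value per gene, gave a difference of 0.97 (limma adjusted p of 0.019).

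Chrm1, which is strongly expressed in hippocampal pyramidal cells, did not pass the test at either probe. At A_52_P393577 (chr19:8755342-8755401) the B6 arrays measured 8.95, 8.86, 8.90 and 9.15. The BTBR arrays measured 8.44, 8.67, 9.26 and 9.1, with the lower pair on BTBR replicates 1 and 2, where the principal neuron markers were also low. Their part in these values was not tested. The difference was -0.10 with a standard error of 0.17 (limma adjusted p of 0.83). It was -0.35 within slide 1 and 0.15 within slide 2, and 0.21 without BTBR replicates 1 and 2 (limma adjusted p of 0.35). The other probe, A_52_P85372, covers 12921 bases of chromosome 19 from end to end, 12861 more than its own 60 bases, and so reads across an intron. It measured 8.38 to 8.45 in B6 and 8.31 to 8.52 in BTBR, a difference of -0.02 with a standard error of 0.06.

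The Gi-coupled receptor genes were dim. Chrm2, which encodes an autoreceptor of cholinergic terminals among its other sites, was well above background on 2 B6 and 3 BTBR arrays (A_51_P292341, chr6:36473213-36473272). It measured 7.78, 7.83, 8.09 and 7.93 in B6 and 8.35, 8.16, 7.89 and 7.91 in BTBR. The higher BTBR values were those of slide 1, and the difference of 0.17 (standard error 0.12, limma adjusted p of 0.51) was 0.45 within slide 1 and -0.11 within slide 2. Slide 1 taken alone, with the spread pooled over slides, gave a limma adjusted p of 0.039, and without BTBR replicates 1 and 2 the difference was -0.0036, within the spread of both groups. The processed signal gave 0.79 (limma adjusted p of 0.44). Chrm4 was read by 2 probes 381 bases apart between their starts on chromosome 2, each well above background on 3 B6 and 4 BTBR arrays. A_52_P88054 (chr2:91768397-91768456) measured 8.20, 8.34, 8.43 and 8.36 in B6 and 8.39, 8.67, 8.30 and 8.29 in BTBR. The groups overlapped, and BTBR replicate 2 was the highest array. The difference was 0.08 with a standard error of 0.10, and -0.01 without BTBR replicate 2. A_51_P418325 measured 7.88, 8.02, 8.11 and 7.97 in B6 and 8.20, 8.19, 8.30 and 8.0 in BTBR, where BTBR replicate 3 was the highest, with a difference of 0.18 (standard error 0.08, limma adjusted p of 0.29). The processed signal gave 0.28 and 0.56 for these probes (limma adjusted p of 0.61 and 0.36).

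Chrna5 was read by 1 probe, A_52_P213550, designed on NM_176844. It spans chr9:54852958-54854271 on the plus strand (mm9), 1254 bases more than its own 60, and so joins sequence on both sides of an intron. The sequence is shown because the lower level of Chrna5 in BTBR rests on it alone, and capitals mark the longest run shared with a probe of another member gene, 7 bases with Chrnb2.
Chrna5 A_52_P213550: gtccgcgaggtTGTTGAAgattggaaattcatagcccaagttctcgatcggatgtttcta
The longest run it shared with any other gene's probe was 12 bases, in 3 probes.

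The B6 arrays measured 8.93, 8.69, 8.76 and 8.96 for Chrna5. The BTBR arrays measured 8.18, 8.16, 8.50 and 8.49. Every BTBR array lay below every B6 array, with the lower BTBR pair on slide 1. The means were 8.84 ± 0.13 in B6 and 8.33 ± 0.19 in BTBR (SD, n = 4), a difference of -0.50 with a standard error of 0.11. Chrna5 was 1.42-fold lower in BTBR, with a 95% interval of 1.20 to 1.68 and a limma adjusted p of 0.021, and the exact permutation test gave p = 0.0286. The intensity over local background was 356 to 469 in B6 and 259 to 280 in BTBR. The size of the difference varied with the signal used: it was -0.35 in the deposited matrix (limma adjusted p of 0.026), -0.47 with normexp background correction, -0.55 with an offset of 16 in place of 50, and -1.09 (limma adjusted p of 0.021) with the processed signal of the scanner software, which has its own background subtraction and was scaled by the 75th percentile.

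The Chrna5 call was kept in 16 of 23 other limma fits, whereas that of Chrm3 probe A_51_P247853 was kept in 23 of 23. The rank product did not call Chrna5 (pfp of 0.13). Leaving out B6 replicate 1, B6 replicate 4, BTBR replicate 1 or BTBR replicate 2 raised the limma adjusted p to 0.068, 0.068, 0.059 and 0.055, with differences of -0.47, -0.46, -0.45 and -0.45. Without BTBR replicates 1 and 2 together it was -0.34 (limma adjusted p of 0.11). The difference was -0.64 within slide 1 and -0.37 within slide 2, negative on both.

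Chrna4 and Chrnb2, which encode the partners of the main heteromeric nicotinic receptor, had their highest value of all 8 arrays on BTBR replicate 1. Chrna4 probe A_52_P350750 (chr2:180757309-180757368, minus strand) measured 9.37, 9.49, 9.40 and 9.03 in B6 and 11.60, 9.96, 9.06 and 9.29 in BTBR. The mean difference of 0.65, with a standard error of 0.48, was the largest among the probes not called and did not pass (limma adjusted p of 0.55). It was 1.35 within slide 1 and -0.04 within slide 2, 0.11 without BTBR replicate 1, and -0.15 without BTBR replicates 1 and 2. The other Chrna4 probe, A_51_P104487 (chr2:180759428-180759487), also had its highest value on BTBR replicate 1. It measured 8.85 to 9.23 in B6 and 9.06, 8.95 and 9.18 on BTBR replicates 2, 3 and 4. BTBR replicate 1 had an intensity over local background of 1160 against 386 to 596 in B6, and BTBR replicate 2, which lay above every B6 array at the first probe, lay within the B6 values at this one. The difference of 0.22 became -0.02 without BTBR replicate 1. The array that set these values was the one with high thalamus and habenula markers, regions where Chrna4 is abundant. The part of that tissue in these values was not tested.

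Chrnb2 (A_52_P222026, chr3:89557860-89557919, minus strand) was a bright probe. It measured 11.26, 11.42, 11.26 and 11.45 in B6 and 11.96, 11.25, 11.41 and 11.61 in BTBR. The groups overlapped, and the difference of 0.21 with a standard error of 0.14 (limma adjusted p of 0.51) was 0.08 without BTBR replicate 1.

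Chrna7 had its lowest value of the 8 arrays on BTBR replicate 1. A_51_P108228 (chr7:70244005-70244064, minus strand) measured 9.34, 9.25, 9.23 and 9.55 in B6 and 8.41, 8.98, 9.38 and 9.26 in BTBR. The difference of -0.34 (standard error 0.19, limma adjusted p of 0.42) was -0.60 within slide 1 and -0.07 within slide 2, and -0.14 without BTBR replicate 1. The second Chrna7 probe, A_52_P648773, covers 38166 bases of chromosome 7 and so reads across introns. It was well above background on 3 B6 and 2 BTBR arrays and measured 7.94 to 8.12 in B6 and 7.88 to 8.09 in BTBR, a difference of -0.02 with a standard error of 0.07.

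Ache measured 11.94, 12.24, 12.09 and 12.20 in B6 and 13.06, 12.70, 11.82 and 12.46 in BTBR (A_51_P117627, chr5:137735378-137735437). BTBR replicate 1 was the highest and BTBR replicate 3 the lowest of all 8 arrays, so that the BTBR values enclosed the B6 values. The difference was 0.39 with a standard error of 0.23 and did not pass (limma adjusted p of 0.42). It was 0.79 within slide 1 and -0.01 within slide 2. Leaving out BTBR replicate 3 gave 0.62 and a limma adjusted p of 0.037, whereas leaving out BTBR replicates 1 and 2 gave 0.02. Over the 14 member probes, BTBR replicate 1 held the highest of the 8 values at 5 and the lowest at 4. BTBR replicate 3 also held the highest value at 5, and B6 replicate 1 the lowest at 4.

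**Figure D3:**
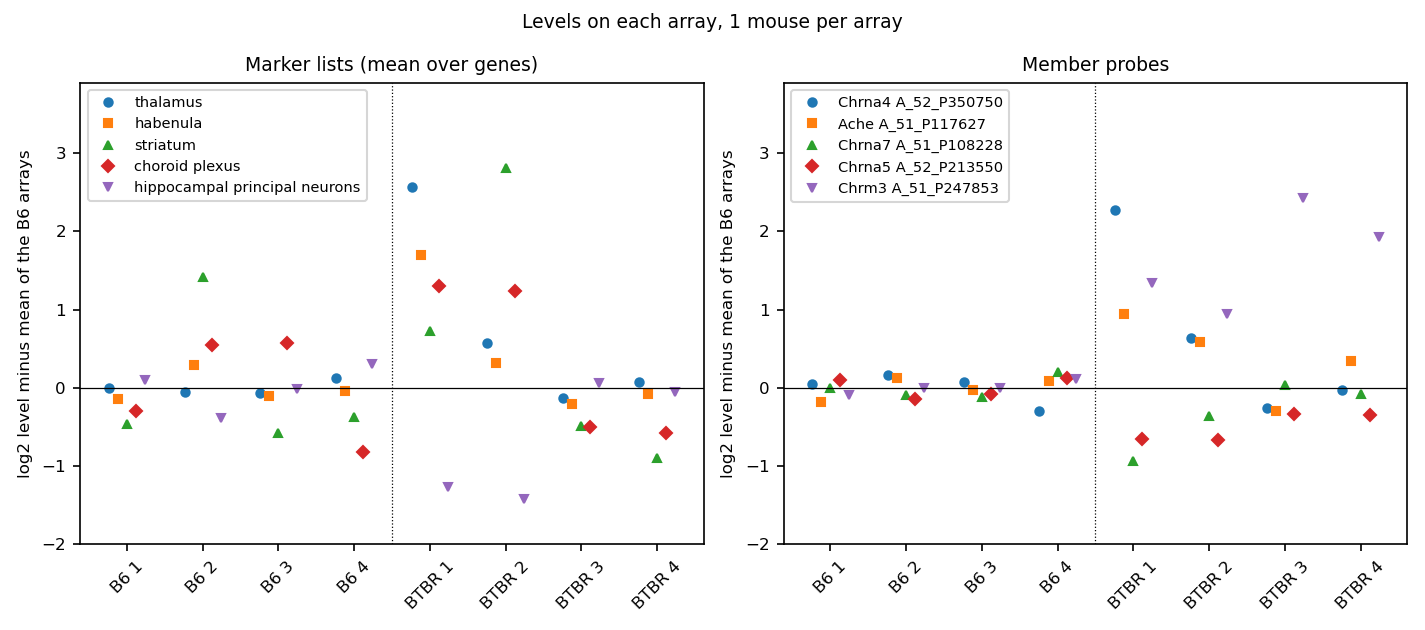
Log2 level on each array minus the mean of the 4 B6 arrays, for the mean of 5 marker lists (left) and for 5 member probes (right), with 1 point per array. BTBR replicate 1 is highest for the thalamus list (12.83 before centering) and for Chrna4 and Ache, whereas Chrm3 is higher on BTBR replicates 3 and 4 than on BTBR replicates 1 and 2.

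Other genes of cholinergic signaling were read from lists, each gene by its brightest tested probe, and the counts stand beside the 7.67% of all probes that limma called. Of 13 further muscarinic and nicotinic subunit genes, 7 were tested and 0 were called by limma, with a median difference of -0.03. Chrna2, Chrna3, Chrna6, Chrna9, Chrnb3 and Chrnb4 did not pass the filter on dim probes. Of 10 genes of acetylcholine synthesis, transport and breakdown, 8 were tested and 0 were called, with a median difference of 0.11. Chat, which encodes the synthetic enzyme, measured 7.97 in B6 and 8.08 in BTBR on average at its brightest probe. That probe was well above background on 3 arrays of each strain. The other Chat probe was so on 0 arrays of either strain, with means of 7.76 in B6 and 7.72 in BTBR. Of 8 genes of cholinergic projection neurons, 5 were tested and 0 were called, again by limma. The mean log2 level of those 5 genes was 9.31 on BTBR replicate 2 and 8.88 on B6 replicate 2, the arrays with high striatum markers, and 8.09 to 8.84 on the others.

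Among 12 tested genes of receptor assembly, clustering and prototoxins, small Ly6-type proteins that bind nicotinic receptors, 1 was higher and 1 lower in BTBR by limma, against 3.33% and 4.33% of all probes tested, with a list median of -0.04. Lypd1, which encodes such a protein, measured 12.92, 12.80, 12.87 and 12.87 in B6 and 9.09, 8.81, 9.60 and 9.69 in BTBR (A_51_P497395, chr1:127768639-127768698). Lypd1 was read by this probe alone. The groups lay far apart, with a difference of -3.57, a standard error of 0.18 and a limma adjusted p of 3.4e-06. It was -3.91 within slide 1, -3.23 within slide 2 and -3.24 without BTBR replicates 1 and 2 and B6 replicate 2 (limma adjusted p of 2.3e-05). Lynx1, another prototoxin that dampens nicotinic receptors, measured 16.57 to 16.64 in B6 and 16.80 to 17.09 in BTBR. BTBR replicate 1 was the highest. The difference was 0.29 (standard error 0.07, limma adjusted p of 0.048). With any 1 of the 8 arrays left out it was 0.23 to 0.33, with limma adjusted p-values of 0.053 to 0.12. Without BTBR replicates 1 and 2 it was 0.21 (limma adjusted p of 0.15). Other settings also lost the call, among them scaling by array medians (0.23, limma adjusted p of 0.088) and the replicate number as a block (0.29, limma adjusted p of 0.11).

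Of 33 genes downstream of muscarinic receptors, all were tested and 0 were called by limma at their brightest probe, with a median difference of -0.01. Probes other than the brightest were called for 2 of these genes. Arrb1, which encodes a beta-arrestin, had a difference of 0.34 at A_52_P175003 (limma adjusted p of 0.007) but -0.02 at its brightest probe. That call was lost without BTBR replicates 1 and 2 (0.31, limma adjusted p of 0.055), without those and B6 replicate 2 (0.32, adjusted p of 0.11) and within either slide (0.34 on each, adjusted p of 0.053 and 0.10), with differences close to that of all 8 arrays. Adrbk2, which encodes a G protein-coupled receptor kinase, had 0.43 at A_51_P222324 (limma adjusted p of 0.037) but -0.17 at its brightest probe, and the call was lost when any array but BTBR replicate 2 was left out, with differences of 0.36 to 0.47 and adjusted p-values of 0.061 to 0.091.

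**Figure D4:**
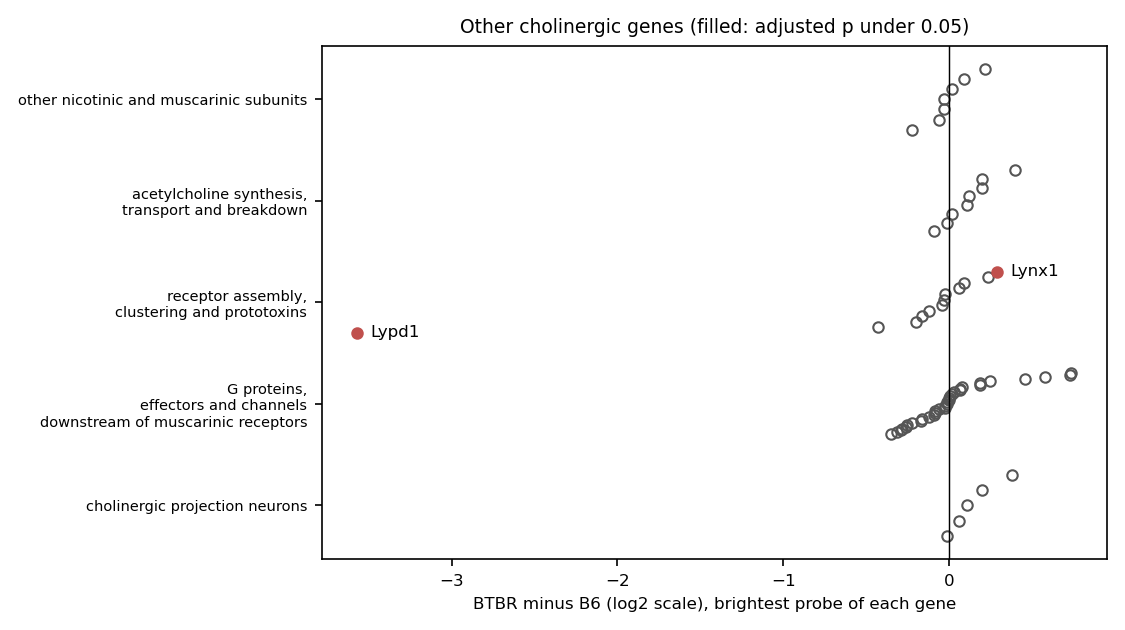
Difference of BTBR minus B6 on the log2 scale at the brightest probe of each tested gene in 5 lists of cholinergic genes, 1 point per gene, filled where the limma adjusted p was under 0.05. Lypd1, at -3.57, lies apart from the other genes, and Lynx1 is at 0.29.

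The genes whose profile lay nearest to the called members over the 8 arrays were found by the root mean square distance between log2 values, each probe centered on its own mean. For Chrm3 they were a probe named Hdac1 on chromosome 17 (distance 0.299, difference 1.36, limma adjusted p of 0.00027) and Casc4 (distance 0.309, difference 1.62, limma adjusted p of 1.8e-05). The name Hdac1 and the position are those the array gives for that probe, and the name was not checked here. For Chrna5 the nearest genes were Gpr115 (distance 0.0576, difference -0.52) and Tbcc (distance 0.0643, difference -0.47), both on chromosome 17, with limma adjusted p-values of 0.026 and 0.034.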

How the data were processed

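Per the labels, Cy3-labeled hippocampal RNA of 4 B6 and 4 BTBR mice was hybridized to Agilent mouse arrays. The strain background field reads C57BL/6J for every sample, so the BTBR group was taken from the titles. The intensity values were deposited by the authors as the scanner software, Agilent Feature Extraction 10.7.3.1, wrote them, with no scaling between arrays. The deposited matrix of log2 values was background subtracted and quantile normalized by the authors, and served as an alternative.

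Here the mean intensity of a spot less its median local background was floored at 0.5, offset by 50, put on the log2 scale and quantile normalized, with control spots removed from the 45018 spots of an array. Replicate spots were summarized by their median. Outlier flags removed 154 probes, and a probe was tested if 75% or more of either strain's arrays had it well above background. Limma 3.58.1 in R 4.3.3 fitted strain alone, with Benjamini-Hochberg adjusted p under 0.05 called. The fit was tested on simulated data. Single values were also compared with two-sided exact permutation tests. The rank product used 100 permutations and was called at a pfp of 0.05 or less. Fold changes are those of values with the offset added, which understates the change of dim probes. The number of arrays limits the precision.

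Probe coordinates are mm9, as in the array files, and probe sequences are those of the array files. Exons were not annotated here, and strain differences in the sequence under the probes were not examined. RefSeq genes of GRCm38.p6 gave the same symbol for 13 of 14 member probes, and AK051841 is named by the array alone. In the lists, called genes were named, at most 4 a list. The 2 nearest gene names were given for Chrm3 and Chrna5, leaving out names that are clone or transcript identifiers. Naming Chat followed a look at its values. The members and lists were chosen with earlier results of these data known. The marker lists for deep cortex (5 genes tested), interneurons (9) and choroid plexus (7) are described in the closing section. The alternatives were other signals, background corrections, scalings, filters and offsets, blocks, single slides and arrays left out.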

Additional observations from a re-analysis of the deposited data

Results flagged for a closer look

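No member probe had an array that stood apart from the other 3 of its strain by Dixon's criterion for 4 values, which divides the gap to the nearest array by the range, in 28 groups. Marker lists did, and 6 of all 64 groups tested had such an array, where chance gives about 1 in 20. The summed intensity of the thalamus markers was 169137 on BTBR replicate 1, with a gap of 0.903 of the range. That of the habenula markers was 19036 on BTBR replicate 1 (gap 0.851) and 5410 on B6 replicate 2 (gap 0.98, against 3323 to 3364 on the other B6 arrays). The striatum markers of B6 replicate 2 had a mean log2 level of 12.71 (gap 0.9) and a summed intensity of 156639 (gap 0.928). The deep cortex and subplate markers summed to 32695 on B6 replicate 4, the lowest of the B6 arrays (gap 0.841). Their mean log2 levels were 11.95 and 11.99 on BTBR replicates 1 and 2, above the 10.44 to 11.67 of the B6 arrays. On BTBR replicates 3 and 4 they were 10.66 and 11.11.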

How the results depend on the processing

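The higher level of Chrm3 at A_51_P247853 kept its direction and its call in all 23 other limma fits of that probe, with differences of 1.41 to 1.90 when each array was left out. Chrna5 was lower in all 23 of its fits, and its call was lost on slide 2 alone (-0.37), without BTBR replicates 1 and 2 (-0.34) and without those and B6 replicate 2 (-0.39), the last pair of settings having been chosen after the data were seen. With each array left out the differences were -0.56 to -0.45, and the call was lost in 4 of these 8 fits, at -0.47 to -0.45. The cause was not tested. The number of probes called over the whole array was 1533 to 2181 with an array left out, 2410 on slide 1 alone, 1038 on slide 2 alone, 1553 without BTBR replicates 1 and 2, 1187 without BTBR replicates 1 and 2 and B6 replicate 2, and 1095 by the rank product, against 2145. Among the member probes it was 3 on slide 1 alone, 1 in the other 4 of these settings, and 1 to 3 with an array left out: 1 without B6 replicate 1, B6 replicate 4, BTBR replicate 1 or BTBR replicate 2, and 3, with Ache, without BTBR replicate 3.

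Differences that were not called changed sign in some settings. On slide 2 alone they were -0.0066 for Ache, 0.15 and 0.058 for Chrm1 (A_52_P393577 and A_52_P85372), -0.11 for Chrm2, -0.10 for Chrm4 (A_52_P88054), -0.041 for Chrna4 (A_52_P350750) and 0.095 for Chrna7 (A_52_P648773). Without BTBR replicates 1 and 2 they were 0.21 and 0.035 for Chrm1, -0.0036 for Chrm2, -0.041 for Chrm4, -0.15 and -0.019 for Chrna4 and 0.041 for Chrna7. Leaving out B6 replicate 2 as well gave 0.18 and 0.042 for Chrm1, -0.029 for Chrm2, -0.037 for Chrm4, -0.093 for Chrna4 (A_52_P350750) and 0.043 for Chrna7. The processed signal gave 0.088 for Chrm1 (A_52_P85372) and 0.065 for Chrna7 (A_52_P648773). With an array left out, the ranges were -0.23 to 0.044 and -0.057 to 0.012 for Chrm1, -0.0090 to 0.12 for Chrm4 (A_52_P88054), -0.019 to 0.33 for Chrna4 (A_51_P104487) and -0.049 to 0.021 for Chrna7 (A_52_P648773). Dim signal limits Chrm2, Chrm4 and the second Chrm3 and Chrna7 probes, which were not well above background on 1 to 3 of the 8 arrays.

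Deviations from the strain means of same-numbered arrays had correlations over probes of -0.142, 0.511, -0.1 and 0.39 for replicates 1 to 4. Those of arrays with different numbers ran from -0.496 to 0.37. These values do not settle whether replicate numbers pair the arrays, and the main fit did not use the numbers. With the replicate number as a block, 1660 probes were called over the whole array and 2 among the members, Chrm3 (adjusted p of 0.013) and Chrna5 (adjusted p of 0.035) in limma.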

Other observations

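Both slide 1 arrays of BTBR also had high choroid plexus markers, with mean log2 levels of 12.70 and 12.63 on BTBR replicates 1 and 2, 10.89 and 10.81 on BTBR replicates 3 and 4 and 10.57 to 11.97 on the B6 arrays, and 0 of 7 genes were called. The interneuron markers, 9 genes, had mean log2 levels of 13.74 to 13.98 in B6 and 13.49 to 14.20 in BTBR.

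Among nicotinic subunit genes that did not pass the filter on dim probes, a probe of Chrnb3 and the probe of Chrnb4 had their highest value on BTBR replicate 1. Chrnb3 (A_51_P161793) measured 9.03 on that array and 7.57 to 8.01 on the other 7, whereas the second Chrnb3 probe (A_52_P358651) measured 7.71 on that array and 7.73 to 7.84 in B6. Chrnb4 (A_51_P373629) measured 8.46 on that array and 7.57 to 7.68 on the other 7, and it was well above background on that array alone. Chrna3, which habenular neurons also express, did not rise well above background at either probe on the 8 arrays, with 7.41 to 7.93. These genes were named after their values were seen.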
